A study of Mus musculus with 6 samples.

Results

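The heme enzymes studied here are 9 genes, Alas1, Alas2, Alad, Uros, Urod, Cpox, Ppox, Fech and Hmox1, read by 12 of the 55681 non-control probes on the array. They were chosen by the gene name that the array files give each probe. RNA came from sorted CD71highTer119+ BM erythroblasts (CD71 is the transferrin receptor and Ter119 an antigen of the erythroid surface) of 3 P38α+/- and 3 P38α-/- C57Bl/6 mice on day 4 of recovery from anemia. The methods give 1 injection of phenylhydrazine (PHZ) at 100 mg per kg, a drug that lyses red cells and so causes anemia. The mice carried floxed P38α, with 1 floxed allele in P38α+/- and both alleles floxed in P38α-/-. Both genotypes carried Mx1-Cre, which acts in all hematopoietic cells and not in erythroid cells alone, and both received 3 injections of PolyIC (300 µg each) at 6 to 8 weeks of age, with 6 weeks of rest before PHZ. By design the controls had thus also lost 1 allele and had the same inducer. From each mouse, 10 ng of RNA was put on 1 Agilent array.

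Heme is an iron-containing ring that hemoglobin, cytochromes and other proteins carry. Its synthesis starts in the mitochondrion, where an aminolevulinate synthase joins glycine and succinyl-CoA, passes through the cytosol, and ends in the mitochondrion with the insertion of iron. Alas2 is the erythroid form of the first enzyme and Alas1 the form found in most cells. Heme oxygenase 1, the product of Hmox1, opens the ring and releases iron, carbon monoxide and biliverdin, and is abundant in macrophages that take up red cells. The comparison asked whether transcripts of these enzymes differed between P38α-/- and P38α+/- erythroblasts during recovery from anemia. The genes cover 7 of the 8 steps of synthesis, since the enzyme of the third step is not among them and was not analysed here.

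The array measures each gene through 60-base probes, and the following probe sequences show which stretches of 4 transcripts were read. The Alas2 probe lies at chrX:147004993-147005052, plus strand, and the Alad probe at chr4:62172559-62172618, minus strand (mm9). The Ppox probe spans 178 bases at chr1:173207452-173207629, minus strand, so it crosses a splice junction. The dimmer of the Hmox1 probes lies at chr8:77620797-77620856, plus strand. Of the Alas2 probe the first 42 bases are given, up to the stop codon of the reading frame, which is in capitals.
Alas2: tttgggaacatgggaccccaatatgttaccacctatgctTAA
Alad: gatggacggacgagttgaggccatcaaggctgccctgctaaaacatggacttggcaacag
Ppox: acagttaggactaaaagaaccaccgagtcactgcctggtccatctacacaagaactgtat
Hmox1: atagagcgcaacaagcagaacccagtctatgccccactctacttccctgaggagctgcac

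RefSeq promoters (GRCm38.p6, 250 bases before to 50 after a start) were at hand for 7 of the 9 genes, in 10 windows, with none for Fech or Hmox1. The stretches before the starts of both aminolevulinate synthase genes are shown, since both genes serve the same first reaction. The Alas2 stretch is chrX:150547167-150547416, plus strand, and the Alas1 stretch is chr9:106247955-106248204, minus strand, for the more upstream of its 2 starts. Capitals mark AGATAA, the core of a GATA factor motif, and CACCC, the core of a KLF motif, on either strand.
Alas2: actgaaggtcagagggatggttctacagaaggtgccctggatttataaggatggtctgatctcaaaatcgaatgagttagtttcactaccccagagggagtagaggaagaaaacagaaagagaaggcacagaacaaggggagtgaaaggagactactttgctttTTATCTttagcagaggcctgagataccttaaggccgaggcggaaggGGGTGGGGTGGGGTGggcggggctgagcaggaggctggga
Alas1: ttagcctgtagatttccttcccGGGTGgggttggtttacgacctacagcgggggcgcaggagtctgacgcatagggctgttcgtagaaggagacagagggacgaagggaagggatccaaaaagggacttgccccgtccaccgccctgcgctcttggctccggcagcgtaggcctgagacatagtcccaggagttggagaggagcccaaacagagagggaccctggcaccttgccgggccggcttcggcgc

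In the 250 bases shown, Alas2 held 1 AGATAA and 3 CACCC, and Alas1 held 0 AGATAA and 1 CACCC. Over the full windows, AGATAA was found in 2 of the 10 member windows, those of Alas2 and Cpox, and in 11.2% of all 32851 promoters. CACCC was found in 6 of the 10 windows and in 57.5% of all promoters. ACGTG, the core of a hypoxia response element, was found in 5 windows, 1 each of Uros, Urod and Cpox and both of Alad, and in 19.6% of all promoters. TGACNNNGC, the core of an antioxidant response element, was found in 0 windows and in 12.4% of all promoters. These are matches of letters on both strands, counted with overlaps. The windows of Alad overlap each other on the genome, as do those of Alas1, so 1 site can count in both.

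Values are given as the log2 of the background-corrected signal minus the 75th percentile of the same array, computed from 15538 probes that stood well above background in every array. A value of 0 is thus the signal at that percentile. Probes differ in affinity, so the values follow 1 probe across arrays and give no order of mRNA abundance between enzymes. Probes well above background made up 53.1%, 38.2% and 36.9% of the total in P38α+/- replicates 1 to 3 and 28.9%, 35.9% and 35.1% in P38α-/- replicates 1 to 3, and 0 spots were saturated. Tests were run on the 18782 probes, all 12 heme probes among them, with signal well above background in every array of P38α+/-, of P38α-/- or of both. The median difference of all tested probes was -0.16. Mapk14, the gene of P38α, was not lower in the arrays labelled P38α-/-. Its brighter probe differed by 0.54 on the log2 scale (limma adjusted p = 0.186), with all P38α-/- arrays above all P38α+/- arrays, and its dimmer probe by 0.01. Where these probes lie relative to the deleted part is not given in the sources used here. The study reports, from genomic PCR and immunoblots after PolyIC, excised P38α alleles and loss of the protein in sorted P38α-/- erythroblasts. Of the defining erythroid markers, Slc4a1 (band 3, the anion exchanger of the red cell membrane) ranged from 6.89 to 7.30 in P38α+/- and from 6.79 to 7.33 in P38α-/-. Tfrc, the gene of CD71, gave 2.50, 2.43 and 3.37 in P38α+/- and 2.65, 2.56 and 2.86 in P38α-/- replicates 1 to 3. Both were well above background on every array and overlapped between genotypes.

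No heme probe differed between genotypes at the threshold used, limma adjusted p (Benjamini-Hochberg) no higher than 0.05 together with a change of 2-fold or more. That is 0 of 12 probes, beside 28 of all tested probes (0.149%), 21 of them higher in P38α-/- (0.112%) and 7 lower (0.0373%). The smallest adjusted p of a heme probe was 0.155. Before adjustment, at p no higher than 0.05, 4 of the 12 heme probes passed in limma (33.3%, beside 20.9% of all tested probes). In the methods' unpaired equal-variance test 1 passed and 0 were called after adjustment. The unadjusted share of all probes in that test is not given here. The 4 in limma were the 2 probes each of Alas1 and Hmox1, so they stand for 2 genes. The dimmer probe of each was tested only because it was well above background in every P38α+/- array, the group where it was higher. The 1 in the methods' test was the Fech probe, so no Alas1 or Hmox1 probe passed that test even before adjustment. For 6 of the 12 probes the genotypes did not overlap (beside 27.7% of all probes). P38α-/- lay below for 4, the same Alas1 and Hmox1 probes (33.3%, beside 20.8%), and above for 2 (beside 6.94%). The exact permutation test over 6 arrays cannot give a p below 0.10, which is the value of these 6 probes.

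**Figure D1:**
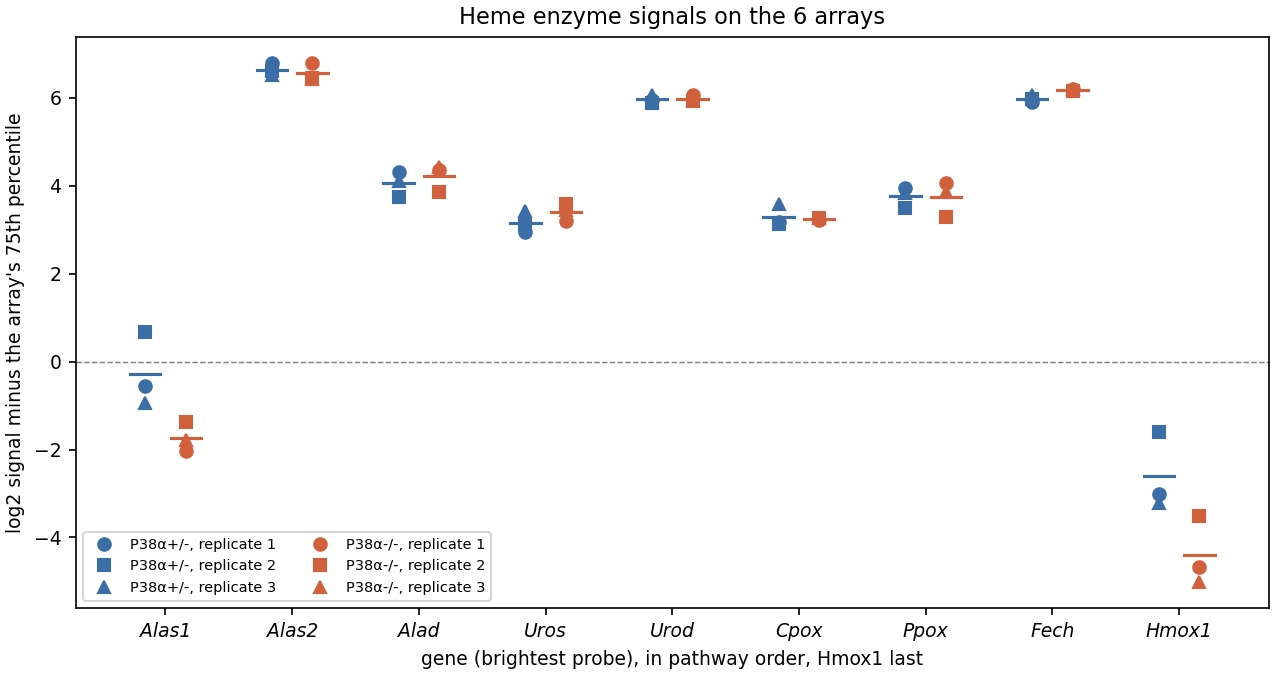
Signal of the brightest probe of each of the 9 genes on each array, as log2 minus the array's 75th percentile (vertical axis), with the genes in pathway order along the horizontal axis. Blue is P38α+/-, orange P38α-/-, symbols give the replicate number and short lines the mean of 3 arrays. For Alas1 and Hmox1 all P38α-/- points lie below all P38α+/- points, for Fech they lie above, and for the other 6 the genotypes overlap. Heights of different genes are not comparable, since each is a different probe.

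At the first step, Alas2 gave values of 6.78, 6.61 and 6.52 in P38α+/- and 6.79, 6.44 and 6.42 in P38α-/- replicates 1 to 3. The genotypes overlapped, and the highest and the lowest array were both P38α-/-. The log2 difference was -0.09 ± 0.17 (SE, 95% interval -0.51 to 0.33, adjusted p = 0.815). Replicate 1 was the highest array of each genotype.

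Alas1 was read by 2 probes, at chr9:106136284-106136343 and chr9:106135796-106135855. The brighter probe gave -0.57, 0.68 and -0.95 in P38α+/- and -2.04, -1.38 and -1.78 in P38α-/- replicates 1 to 3. All 3 P38α-/- arrays lay below all P38α+/- arrays, and P38α+/- replicate 2 stood highest. The log2 difference was -1.45 ± 0.44 (SE, 95% interval -2.51 to -0.39, limma adjusted p = 0.155, unadjusted p = 0.0147). The dimmer probe was not well above background in P38α-/- replicate 1. It gave -4.88, -4.58 and -4.78 in P38α+/- and -5.29, -5.96 and -5.03 in P38α-/- replicates 1 to 3, a log2 difference of -0.68 ± 0.26 (SE, adjusted p = 0.218) in the same direction, which turned to 0.18 with quantile normalization and 0.35 in the authors' normalized table. Whether Alas1 and Alas2 differed in their genotype difference was not tested.

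Alad, the enzyme that joins 2 aminolevulinate molecules into porphobilinogen, gave 4.32, 3.73 and 4.11 in P38α+/- and 4.35, 3.85 and 4.43 in P38α-/- replicates 1 to 3. The genotypes overlapped, and replicate 2 was the lowest array of each. The log2 difference was 0.16 ± 0.24 (SE, adjusted p = 0.742).

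Uros closes the ring to uroporphyrinogen III and Urod removes carboxyl groups from it. The brighter Uros probe (chr7:140878069-140878128) gave 2.95, 3.09 and 3.43 in P38α+/- and 3.20, 3.58 and 3.45 in P38α-/- replicates 1 to 3, and the genotypes overlapped. The difference was 0.25 ± 0.19 on the log2 scale (SE, adjusted p = 0.501). The dimmer probe (chr7:140883818-140883876), whose record in the file is a cDNA clone, gave -1.66, -1.71 and -1.28 in P38α+/- and -1.22, -1.28 and -1.10 in P38α-/- replicates 1 to 3. All P38α-/- arrays lay above all P38α+/- arrays, though the gap between the nearest arrays was smaller than the spread within P38α+/-. The log2 difference was 0.35 ± 0.17 (SE, adjusted p = 0.305). Urod (chr4:116662850-116662909) gave 5.95, 5.87 and 6.07 in P38α+/- and 6.05, 5.91 and 5.94 in P38α-/- replicates 1 to 3. Its log2 difference was 0.00 ± 0.14 (SE, 95% interval -0.34 to 0.35, adjusted p = 0.992).

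Cpox and Ppox carry out the 2 oxidations that precede iron insertion, in the mitochondrion. Cpox (chr16:58680403-58680465) gave 3.18, 3.12 and 3.58 in P38α+/- and 3.21, 3.25 and 3.27 in P38α-/- replicates 1 to 3, a log2 difference of -0.05 ± 0.18 (SE, adjusted p = 0.905). Here the P38α-/- arrays lay within the range of the P38α+/- arrays. Ppox gave 3.94, 3.49 and 3.84 in P38α+/- and 4.06, 3.30 and 3.84 in P38α-/- replicates 1 to 3, and the log2 difference was -0.02 ± 0.25 (SE, adjusted p = 0.969). The P38α-/- arrays held both the highest and the lowest value.

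Fech, the ferrochelatase that inserts iron, is on chromosome 18. Its probe gave 5.90, 5.97 and 6.06 in P38α+/- and 6.19, 6.14 and 6.19 in P38α-/- replicates 1 to 3. All P38α-/- arrays lay above all P38α+/- arrays. The log2 difference was 0.20 ± 0.14 (SE, 95% interval -0.13 to 0.53, adjusted p = 0.453).

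For the 8 probes of the 7 genes other than Alas1 and Hmox1, the log2 differences lay between -0.09 and 0.35, and the 95% intervals together ran from -0.62 to 0.77. The upper end is a fold of 1.70. These limits hold for the main scaling only. Scaled to the percentile of all probes, the dimmer Uros probe was at 0.83, above that range. A p that misses the threshold does not show that the genotypes were alike.

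**Figure D2:**
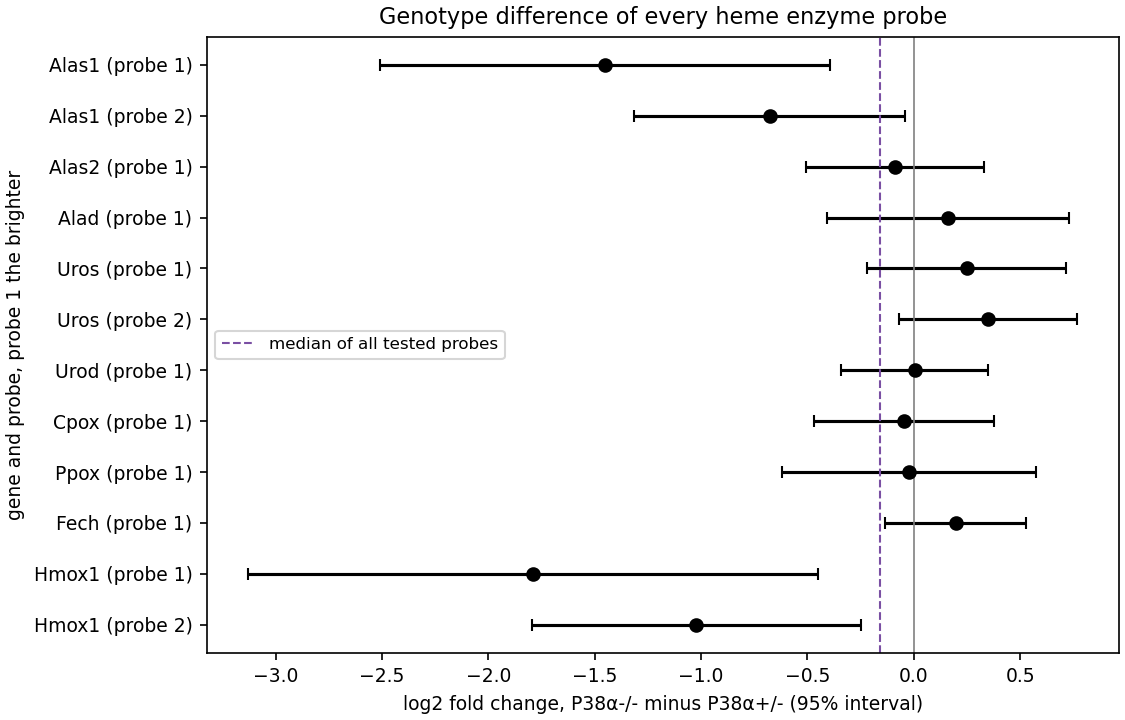
Log2 difference, P38α-/- minus P38α+/-, of all 12 heme probes (points) with 95% intervals from limma. The solid line is 0 and the dashed line the median of all tested probes, -0.16. Both Alas1 and both Hmox1 intervals lie below 0, and the other 8 include it.

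The degradation enzyme Hmox1 had, with Alas1, the largest differences of the 9 genes. Its brighter probe (chr8:77624207-77624266) gave -3.02, -1.60 and -3.21 in P38α+/- and -4.68, -3.51 and -5.01 in P38α-/- replicates 1 to 3. All P38α-/- arrays lay below all P38α+/- arrays, and replicate 2 stood highest in each genotype. The log2 difference was -1.79 ± 0.56 (SE, 95% interval -3.13 to -0.45, limma adjusted p = 0.159, unadjusted p = 0.0166).

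Between arrays of the same replicate number, Hmox1 differed by -1.66, -1.91 and -1.79. With the replicate number as a block in the limma fit, the adjusted p was 0.0481, past the threshold, and Hmox1 was then the only heme probe called. The brighter Alas1 probe, which differed by -1.47, -2.06 and -0.83 within numbers, had an adjusted p of 0.0832 in that fit. The dimmer Hmox1 probe was not well above background in P38α-/- replicate 1. It gave -4.34, -5.00 and -5.33 in P38α+/- and -5.54, -6.33 and -5.87 in P38α-/- replicates 1 to 3, a log2 difference of -1.02 ± 0.32 (SE, adjusted p = 0.161), which shrank to -0.34 with normexp background correction, -0.25 with quantile normalization and -0.22 in the authors' normalized table. P38α-/- replicate 3 was alone on its slide, and over the other 5 arrays the log2 difference was -1.48 for the brighter Hmox1 probe (adjusted p = 0.376) and -1.43 for the brighter Alas1 probe (adjusted p = 0.359). Without P38α+/- replicate 2, the array with the highest values of both, the differences were -1.28 for Hmox1 and -0.97 for Alas1 (adjusted p = 0.329 and 0.277).

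Neutrophil markers had lower signals in P38α-/-, without passing the test. The mean of 12 neutrophil genes was 1.31, 2.09 and 0.48 in P38α+/- and 0.08, -0.06 and -0.58 in P38α-/- replicates 1 to 3. A log2 difference below 0 was seen for all 12, beside 67.0% of all tested probes, with 0 called. All 12 were well above background on every array, among them S100a9 with 6.68, 7.04 and 5.93 in P38α+/- and 5.56, 5.60 and 5.08 in P38α-/-. P38α+/- replicate 2, highest for the brighter Hmox1 and Alas1 probes, was also highest for the neutrophil mean. Among the P38α-/- arrays, replicate 2 was highest for those probes and replicate 1, by a small margin, for the neutrophil mean. Single neutrophil genes were split there. S100a9 and Camp (2.69 and 3.21 in replicates 1 and 2) were higher in replicate 2, and Elane (-0.12 and -1.26) in replicate 1. The part of these cells in the Hmox1 and Alas1 differences was not tested, and in bulk RNA fewer cells of a type and less RNA per cell cannot be told apart.

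Macrophage genes were nearer to background. The mean of the 14 listed genes with a probe was -3.90, -4.73 and -5.57 in P38α+/- and -4.81, -5.28 and -6.50 in P38α-/- replicates 1 to 3, so the genotypes overlapped. Of the 9 that were tested, 8 had a log2 difference below 0 (beside 67.0% of all tested probes) and 0 were called. Of the defining markers, Csf1r was well above background on all 6 arrays (log2 difference -0.91, adjusted p = 0.144), C1qa on 5 (-0.48, adjusted p = 0.830) and Adgre1 on 4 (-1.67, adjusted p = 0.315), while Cd163, Siglec1 and Timd4 were well above background on 0 arrays. The genotypes did not overlap for Csf1r (-0.52, -0.24 and -1.13 in P38α+/-, -1.40, -1.53 and -1.70 in P38α-/-), but did for C1qa and Adgre1. The list mean also holds genes too dim to be tested. The part of macrophage genes in the Hmox1 difference was not tested. The 6 early erythroid genes averaged -2.69 ± 0.50 in P38α+/- and -3.66 ± 0.61 in P38α-/-, and late erythroid genes 2.00 ± 0.05 and 2.19 ± 0.07 (SD, n = 3), with 0 called in either list. The mean of the early list overlapped between genotypes, whereas that of the late list was higher in all P38α-/- arrays than in any P38α+/- array. Of the 8 late genes, 2 had a log2 difference below 0, beside 67.0% of all tested probes. Of the 5 early genes tested, 3 had a log2 difference below 0 (Cd34 -1.87, Kit -1.62 and Myb -1.08), beside 67.0% of all tested probes. Myc (0.05) and Zfpm1 (0.10) were near 0. Cd34 was well above background on 4 arrays and Kit on 5. The B cell list averaged -4.74 ± 1.54 and -7.19 ± 0.62, the T or NK cell list -4.62 ± 0.90 and -5.63 ± 0.47, and the megakaryocyte or platelet list -4.47 ± 0.46 and -4.48 ± 0.23 (SD, n = 3). These means rest largely on genes near background: in P38α-/- replicates 1 to 3, 1, 3 and 1 of the 8 B cell genes and 3, 3 and 3 of the 8 T or NK cell genes were well above it, and 3 of each list were tested.

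**Figure D3:**
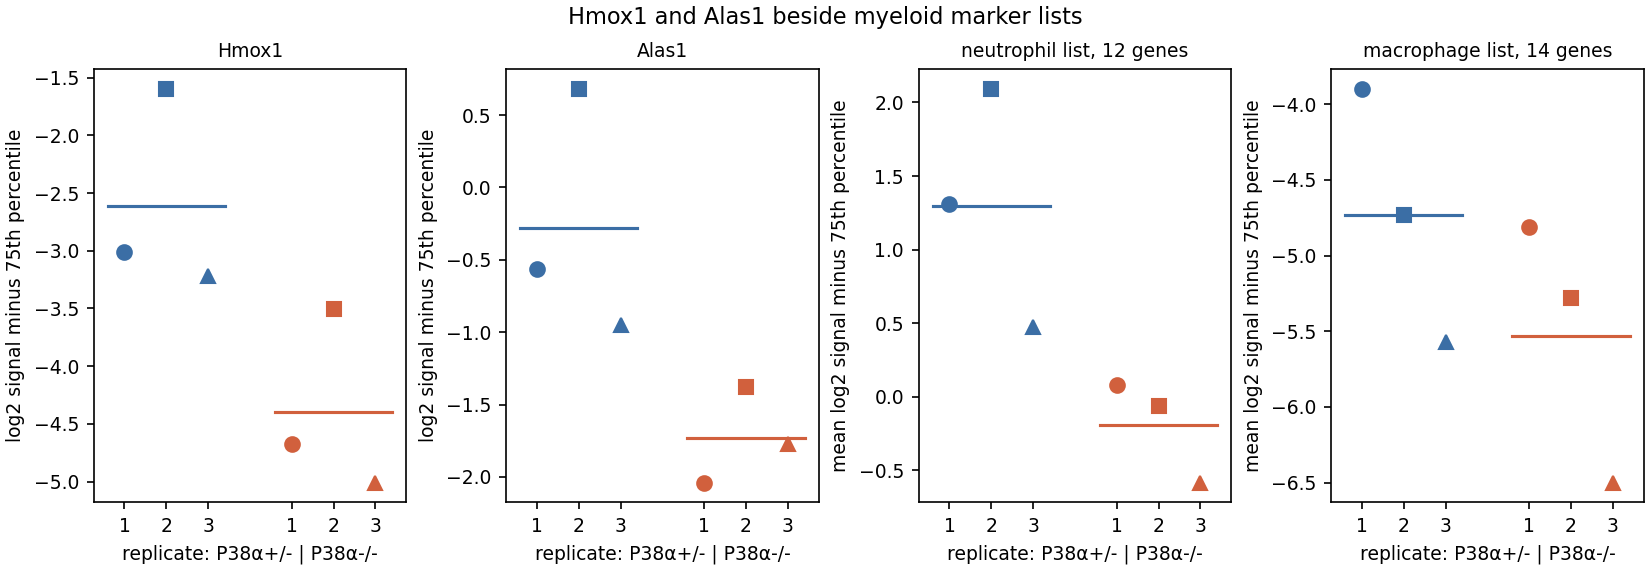
Log2 signal minus the array's 75th percentile of the brightest Hmox1 and Alas1 probes, and the mean over 12 neutrophil and 14 macrophage genes, by array (horizontal axis: replicate numbers, P38α+/- in blue on the left, P38α-/- in orange on the right; lines are means of 3 arrays). Hmox1, Alas1 and the neutrophil list do not overlap between genotypes, whereas the macrophage list does, with P38α+/- replicate 3 at -5.57 below P38α-/- replicates 1 and 2.

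The genes whose pattern over the 6 arrays was most like that of Hmox1 were Prom1, Ly86 and Serpinb1a. After each probe was centred on its own mean, the root mean square difference from Hmox1 was 0.164, 0.214 and 0.232 on the log2 scale, and 1 of the 9029 genes compared lay within 0.2. Prom1 (a surface glycoprotein of progenitor cells) gave -3.24, -1.62 and -3.52 in P38α+/- and -4.75, -4.01 and -5.36 in P38α-/- replicates 1 to 3. For Alas2 the nearest genes were Shc1, Gm14439 and Rpl8, at 0.0192, 0.0336 and 0.0343, but 2010 genes lay within 0.2, since Alas2 itself hardly varied.

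Heme synthesis also needs substrate, iron and transport, and 43 further genes with such roles were on the array, of which 41 were tested, each by its brightest tested probe. None was called in either direction in limma, and 3 passed an unadjusted p of at most 0.05 there, beside 20.9% of all tested probes. In the methods' test 5 did so, a count with no share of all probes in that test to set beside it. The smallest adjusted p was 0.164. Of the 41 genes, 19 had a log2 difference below 0 (67.0% of all tested probes did), and the median was 0.03, beside -0.16 over all tested probes. For 9 genes the genotypes did not overlap (22.0%, beside 27.7% of all probes), with P38α-/- above for 5 (beside 6.94%) and below for 4 (beside 20.8%). Flvcr2 and Aco1 were on the array but too dim to be tested.

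By role, the log2 differences ran from -0.02 to 0.28 for 6 genes of glycine and succinyl-CoA supply, from -0.32 to 0.30 for 12 of iron import and iron-sulfur cluster assembly, and from -0.30 to 0.44 for 11 of porphyrin and heme transport and binding. The 3 genes of heme use in cytochromes ran from -1.17 to -0.25. Of these, Cox10 at -1.17 was not well above background on every P38α-/- array and had an adjusted p of 0.381. The 6 regulators and heme or iron sensors ran from -0.92 (Ireb2, adjusted p = 0.197) to 0.46, and Ireb2 was not well above background on every array.

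The largest positive log2 differences among genes well above background on all arrays were those of Mafg, Slc48a1 and Tspo. Mafg, a small Maf partner of Bach1 and Nrf2 at antioxidant response elements, gave 1.74, 2.06 and 2.14 in P38α+/- and 2.30, 2.52 and 2.48 in P38α-/- replicates 1 to 3 (0.46 ± 0.17, SE, adjusted p = 0.208). Slc48a1, a heme transporter, gave 3.08, 2.91 and 3.02 in P38α+/- and 3.53, 3.41 and 3.40 in P38α-/- (0.44 ± 0.14, SE, adjusted p = 0.164). Both had all P38α-/- arrays above all P38α+/- arrays, while Tspo, a porphyrin-binding mitochondrial membrane protein, overlapped (0.42, adjusted p = 0.293). The largest negative ones were those of Hspa9, a mitochondrial chaperone of iron-sulfur assembly (-0.32, adjusted p = 0.259), Hccs, which attaches heme to cytochrome c (-0.26, adjusted p = 0.389), and the ferredoxin Fdx1 (-0.26, adjusted p = 0.667). Hspa9 and Hccs had all P38α-/- arrays below all P38α+/- arrays, while Fdx1 overlapped.

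The other genes of heme breakdown are given for their role, with their values already seen. Hmox2, the constitutive heme oxygenase, gave -2.26, -2.25 and -2.33 in P38α+/- and -1.68, -2.05 and -2.01 in P38α-/- replicates 1 to 3, so the P38α-/- arrays lay above, opposite to Hmox1 (0.37 ± 0.16, SE, adjusted p = 0.255). Blvra and Blvrb, the biliverdin reductases, differed by 0.10 (adjusted p = 0.797) and 0.09 (adjusted p = 0.827). Bach1, a heme-binding repressor of Hmox1, and Nfe2l2, the gene of its activator Nrf2, differed by -0.04 (adjusted p = 0.947) and -0.16 (adjusted p = 0.703).

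**Figure D4:**
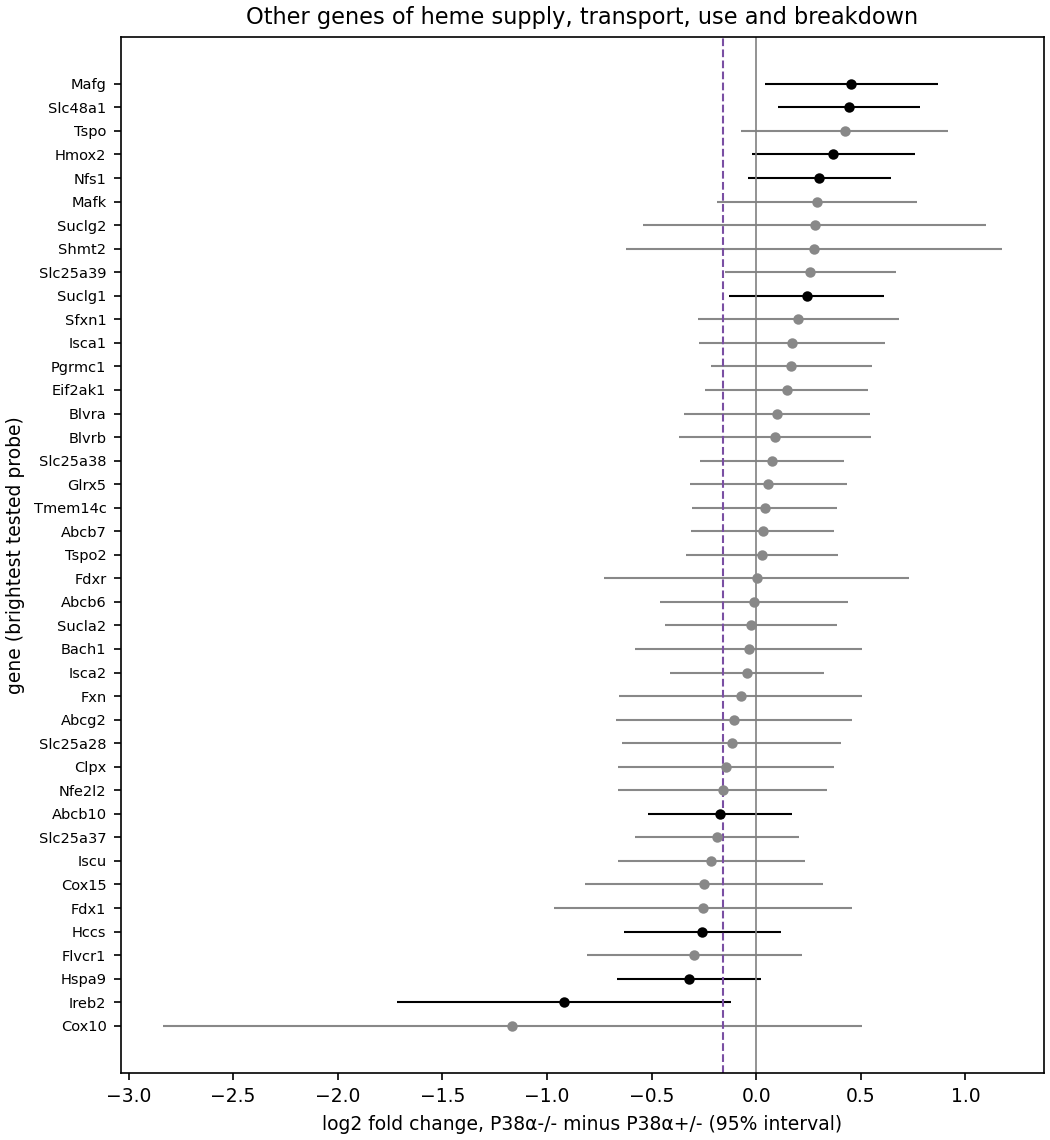
Log2 difference, P38α-/- minus P38α+/-, of 41 other genes of heme metabolism, ranked, with 95% limma intervals. Black marks the 9 genes whose genotypes do not overlap, grey the others, the solid line is 0 and the dashed line the median of all tested probes. All intervals but 3 include 0: those of Mafg and Slc48a1 lie to the right of it and that of Ireb2 to the left. Ireb2 was not well above background on every array.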

How the data were processed

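Per the labels and the study's methods, RNA of 6 mice was hybridised to 1 Agilent 1-colour array each. The authors deposited the scanner intensity of every spot (Agilent Feature Extraction 10.7.3.1), background-subtracted within the array and not normalized between arrays, and a table of normalized intensity values whose steps are not given in the sources used here. Groups and replicate numbers came from the labels. Control and outlier spots were left out, spots of a probe averaged, and log2 signals scaled to each array's 75th percentile. The genotype comparison used two-sided moderated tests of limma 3.58.1 under R 4.3.3, Benjamini-Hochberg adjusted across every tested probe. A gene was named by its brightest tested probe, and other heme genes as the 3 largest differences each way. For likeness, genes well above background on all arrays were compared. Members and lists were chosen with earlier results of these data known. The list of other heme genes held 44 symbols, with Mfsd7b an older name of Flvcr1, and the macrophage list named Adgre1 also as Emr1. To see whether replicate numbers pair the mice, each array was set against its genotype mean, and these deviations correlated over probes at 0.538, 0.312 and 0.424 for same-numbered arrays and at no more than 0.183 for others. The labels do not say what a number shares. Alternatives were other scalings (percentile of all probes, quantile, E1A spike-ins), normexp with an offset of 50, other filters, the authors' table, a replicate or slide block, array weights, each array left out, the methods' test and no fold minimum. Each mouse gave 1 array, and 3 arrays a genotype limit the precision.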

Additional observations from a re-analysis of the deposited data

How the results depend on the processing

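The count of heme probes called was 0 under 17 of 18 alternatives and 1, the brighter Hmox1 probe, with the replicate block (adjusted p = 0.0481). Among the 12 heme probes and the 41 other heme genes the replicate block changed no other call, and with each array left out the count stayed at 0. The 18 alternatives were not all separate checks. The smallest limma adjusted p of a heme probe was 0.827 without a filter and 0.9999 with E1A centring. The slide block gave the same fit as leaving out P38α-/- replicate 3, alone on its slide, and the setting with no fold minimum reused the main fit. Over all probes, 28 were called, against 813 with the percentile of all probes, 516 with array weights, 106 without P38α+/- replicate 3, 70 with the stricter filter, 64 with the replicate block, 15 with quantile normalization, 13 with normexp, 11 in the authors' table, 10 without P38α+/- replicate 1, 5 with E1A centring, 2 in the methods' test and 0 without a filter, with the slide block or without any 1 of the other 4 arrays. Of the 28 calls, 21 were higher in P38α-/-. The share was 58.1% with the percentile of all probes, 93.3% with quantile normalization, 40.0% with E1A centring, 34.3% with array weights and 26.6% with the replicate block, and every call was higher with normexp and in the authors' table. The median probe moved from -0.16 to 0.32 with the percentile of all probes, 0.19 with E1A centring and 0.06 with quantile normalization.

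The brighter Alas1 probe ranged from -1.80 to -0.97 on the log2 scale and the brighter Hmox1 probe from -2.30 to -1.08, always below 0, and the dimmer Hmox1 probe from -1.24 to -0.22. Alad, both Uros probes and Fech stayed above 0, though Alad came down to 0.0010 without P38α+/- replicate 2. Alad ranged up to 0.64, the brighter Uros probe from 0.15 to 0.73, the dimmer from 0.27 to 0.83 and Fech from 0.16 to 0.68. The signs of the others turned, with none called. With the percentile of all probes, Alas2 was at 0.39, Cpox at 0.43 and Ppox at 0.46, and with E1A centring at 0.26, 0.30 and 0.32. With array weights, Cpox was at 0.014 and Ppox at 0.068. With normexp, Cpox was at 0.00032 and Urod at -0.0052. Quantile normalization gave 0.18 for the dimmer Alas1 probe and 0.0029 for Alas2, and the deposited normalized values gave 0.35 and 0.048. With each array left out, Cpox ranged from -0.13 to 0.10, Ppox from -0.19 to 0.19 and Urod from -0.041 to 0.055. The cause was not tested. In the authors' table, the column of P38α-/- replicate 2 had a Spearman correlation of 0.898 with the scanner signal of that array, against 1.00 for the other 5. The 41 other heme genes had 0 calls in each of the 11 alternatives run on them. Leaving out an array left 1 genotype with 2 arrays. Signals near background limit the dimmer Alas1 and Hmox1 probes.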
